A study of Homo sapiens with 12 samples.

Results

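Expression of 47 DNA repair and checkpoint genes was followed across 4 siRNA groups of RCC4, a human cell line established from renal cell carcinoma of the clear cell type. The genes were taken from a list of repair and checkpoint factors, and each takes the mean value of those array probe sets that carry its symbol and no other. Of the 47 genes, 44 had such a probe set, out of 11963 genes named on the arrays. FANCA, RBBP8 and BRCA2 were not analysed here. Cells received 40 pmol of siRNA and were collected after 72 h. The groups of 3 biological replicates each were siNT, given a non-targeting siRNA as the control; siMESH1, in which MESH1 was silenced; siATF4, in which a pooled siRNA silenced ATF4; and siMESH1+siATF4, in which both were silenced. How the 40 pmol was divided in the double silencing is not given in the sources used here, and MESH1 was targeted with a single siRNA sequence. MESH1, encoded by HDDC3, is a phosphatase that removes phosphate from NADPH, and ATF4 is the main transcription factor of the integrated stress response.

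Cells repair DNA by separate routes that serve different lesions. Homologous recombination copies an intact sister chromatid to mend a double-strand break, so it works in S and G2 phase, and the Fanconi anaemia pathway unhooks crosslinks between the strands and hands the resulting breaks to recombination. End joining ligates broken ends without a template in any phase, and mismatch, base excision and nucleotide excision repair remove single damaged or mispaired bases or short stretches of a strand. Many recombination genes are transcribed in step with S phase. The 44 genes were therefore divided into recombination and Fanconi genes (17 genes), break sensing and checkpoint genes (7 genes), and the other repair routes (20 genes). Each gene was counted in a single group, also where it may work in several routes. EXO1 was placed with recombination, and MRE11, RAD50 and NBN with break sensing, so the counts by route depend on such choices.

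Every value below is a log2 signal minus the siNT mean of the same probe sets, so it is a difference and no level. Before the repair genes, the labels were checked on the targeted genes. ATF4 stood at -2.29, -2.33 and -2.30 in the siATF4 arrays and at -2.27, -2.46 and -2.23 in the siMESH1+siATF4 arrays, against -0.10, 0.003 and 0.10 in siNT and -0.02, -0.10 and 0.04 in siMESH1. The 6 arrays with the ATF4 pool were thus all well below the other 6. HDDC3 had 0 named probe sets, so the silencing of MESH1 could not be checked. A gene was called when its Benjamini-Hochberg adjusted p over all 11963 genes, from limma's moderated test, was under 0.05 and its log2 difference was at least 0.5, a fold of 1.41. Shares over all genes are given for this rule and the deposited values only. They were not counted at an unadjusted p or with other centring, so counts of that kind have no background beside them. Markers of proliferating cells moved with the groups. All 18 of 18 fell in each silenced group, with median log2 differences of -1.45 in siMESH1, -1.27 in siATF4 and -1.71 in the double silencing, and MKI67 changed by -1.43, -1.11 and -1.69. In whole-culture RNA a smaller share of cells in S and G2 phase and less of a transcript per cell cannot be told apart, and the part of proliferation in the results was not tested. Of 11 measured leukocyte and endothelial markers limma called 0 in the 3 comparisons with siNT (at an unadjusted p under 0.05, 0 in siMESH1, 3 in siATF4 and 1 in the double silencing). The table has no levels, so the renal identity of the line could not be checked. Of 10 measured renal epithelial and clear cell markers, 2 were called lower in siMESH1 (range -1.608 to 0.222). In siATF4 2 were called higher (-0.165 to 0.748). In the double silencing 1 was called lower and 2 higher (-0.765 to 1.132). These markers thus moved between the groups. The shares over all genes are given below. The 11 measured housekeeping genes averaged -0.33 in siMESH1, -0.15 in siATF4 and -0.22 in the double silencing. Of these 11, limma called TFRC (-1.17), HPRT1 (-0.66) and PGK1 (-0.53) lower in siMESH1, so the list moved unevenly, and without TFRC its means were -0.25, -0.17 and -0.21. Centring on all 11 raised every difference from siNT by 0.33, 0.15 and 0.22. The median over all genes in the deposited scale lay at 0.03, 0.02 and 0.01. The authors' normalisation brings the arrays to a like spread of values, so this median does not speak for either scale.

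Among the 44 members, homologous recombination held the deepest falls. Of its 11 measured genes, 7 fell in siMESH1, 6 in siATF4 and 6 in the double silencing. By limma 0 rose, also at an unadjusted p under 0.05. Their median log2 differences were -0.87, -0.89 and -0.96. Over all genes tested, 5.37% were called lower in siMESH1 vs siNT and 2.82% higher, 4.03% lower and 2.49% higher in siATF4 vs siNT, and 5.25% lower and 4.4% higher in siMESH1+siATF4 vs siNT. The methods' t-test, at an unadjusted p under 0.05 with the same fold minimum, made the same calls for all 44 genes in these 3 comparisons. The 3 comparisons use the same siNT arrays, so their values stand side by side and are not independent.

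**Figure D1:**
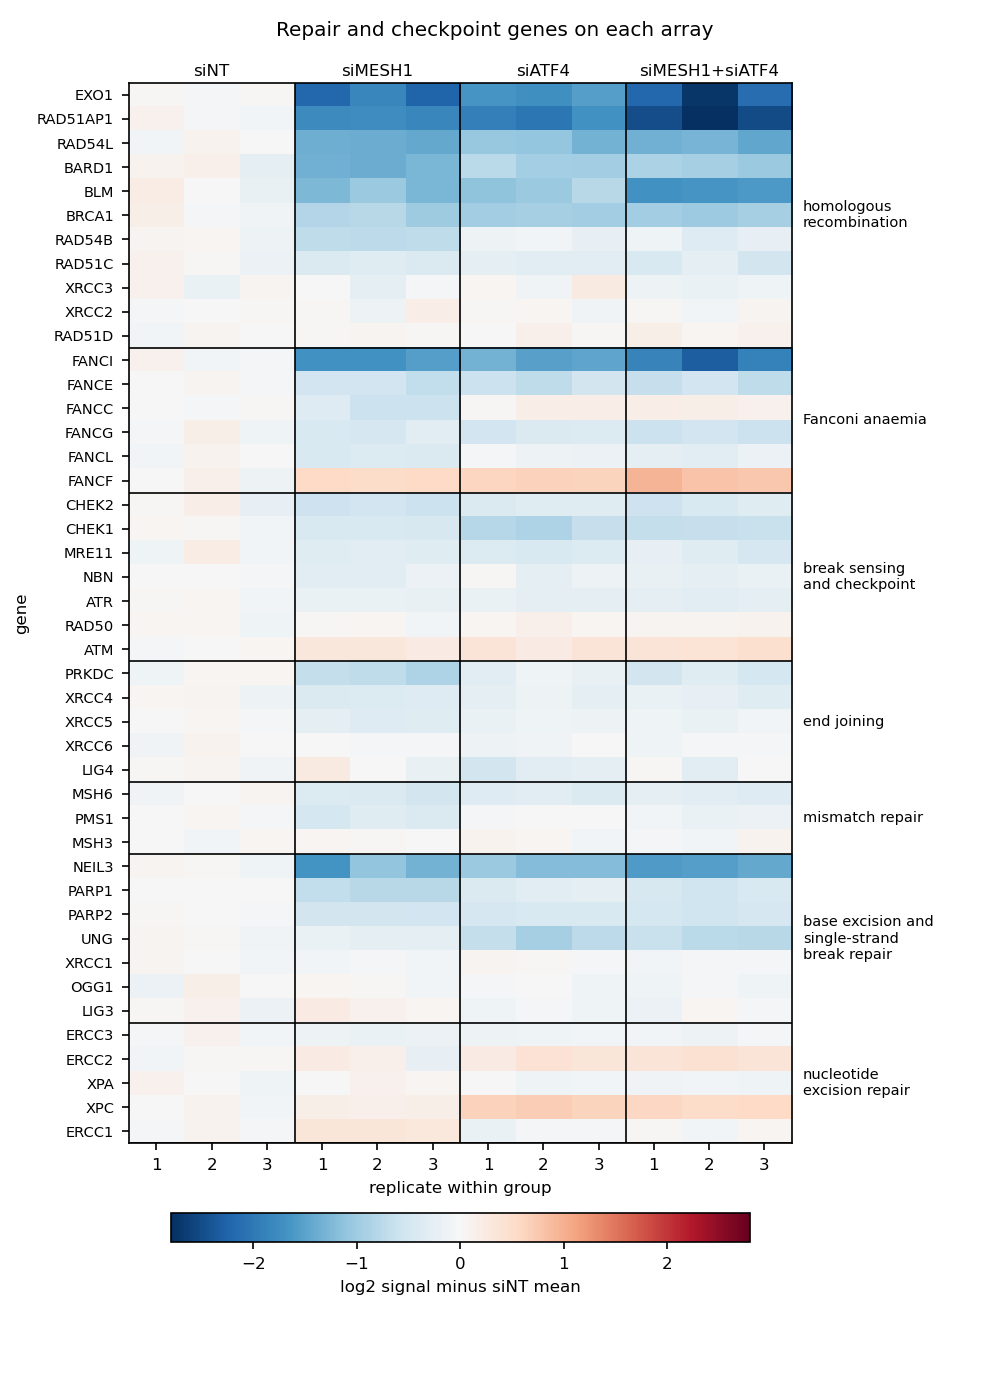
Log2 signal minus the siNT mean (colour, blue lower and red higher) for the 44 measured genes (rows, grouped by repair route) on each of the 12 arrays (columns, numbered by replicate within each siRNA group). Blue concentrates in the recombination genes, in FANCI and in NEIL3, and FANCF and XPC are the members in red past the call threshold in any group.

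EXO1, the exonuclease that resects broken ends to expose the strand used for pairing, was at -2.21, -1.83 and -2.25 in siMESH1, -1.64, -1.72 and -1.55 in siATF4 and -2.21, -2.72 and -2.13 in siMESH1+siATF4, against 0.04, -0.06 and 0.02 in siNT. It fell by 2.09 on the log2 scale in siMESH1 (SE 0.139, adjusted p = 1.4e-07), a 4.27-fold decrease. The siMESH1 and siMESH1+siATF4 arrays overlapped, and the siATF4 arrays lay above both and below siNT. RAD51AP1, an accessory factor of strand exchange, was at -1.79, -1.75 and -1.84 in siMESH1 and -1.91, -2.03 and -1.70 in siATF4. In siMESH1+siATF4 it was at -2.49, -2.79 and -2.50, against 0.12, -0.03 and -0.09 in siNT. The single silencings overlapped, and all double-silenced arrays lay below them. Its decrease was 3.46-fold in siMESH1 (log2 -1.79, SE 0.0957, adjusted p = 1.9e-08) and 6.04-fold with both siRNAs (log2 -2.59, adjusted p = 5.3e-10), the lowest value of any member in any group. RAD54L, a motor protein that remodels DNA during recombination, read -1.37, -1.39 and -1.42 in siMESH1, -1.07, -1.09 and -1.32 in siATF4 and -1.35, -1.30 and -1.46 in siMESH1+siATF4, against -0.09, 0.10 and -0.02 in siNT. The double-silenced arrays overlapped both single silencings, which did not overlap each other. Its log2 difference was -1.39 in siMESH1 (SE 0.0741, adjusted p = 1.8e-08).

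BRCA1 and BARD1 encode the partners of the ubiquitin ligase that commits a break to recombination. BARD1 was at -1.36, -1.39 and -1.27 in siMESH1, -0.75, -0.96 and -0.96 in siATF4 and -0.89, -0.94 and -1.04 in siMESH1+siATF4, against 0.10, 0.14 and -0.25 in siNT. It was lowest in siMESH1, whose arrays did not overlap the other silenced groups. BRCA1 was at -0.83, -0.78 and -0.998 in siMESH1, -0.97, -0.93 and -0.97 in siATF4 and -0.98, -1.02 and -0.93 in siMESH1+siATF4, against 0.16, -0.06 and -0.10 in siNT. Its 3 silenced groups overlapped. Against siNT in siMESH1, BARD1 fell by 1.34 (SE 0.0957, adjusted p = 2.7e-07) and BRCA1 fell by 0.87 (SE 0.0742, adjusted p = 1.5e-06) on the log2 scale. BLM, the helicase that dissolves joined chromatids, was at -1.25, -1.03 and -1.28 in siMESH1, -1.13, -1.04 and -0.77 in siATF4 and -1.69, -1.66 and -1.62 in siMESH1+siATF4, against 0.21, -0.004 and -0.21 in siNT. All double-silenced arrays lay below the single silencings, which overlapped.

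RAD54B, a paralogue of RAD54L, followed another pattern. It was at -0.71, -0.72 and -0.70 in siMESH1, -0.15, -0.08 and -0.24 in siATF4, -0.13, -0.36 and -0.23 in siMESH1+siATF4 and 0.08, 0.05 and -0.13 in siNT. The siATF4 and siMESH1+siATF4 arrays overlapped siNT, and the 3 siMESH1 arrays lay apart below them (log2 -0.71, SE 0.0724, adjusted p = 7.3e-06). With housekeeping centring the difference was -0.38 and below the fold minimum. RAD51C, RAD51D, XRCC2 and XRCC3, which act together in recombination, were not called in any comparison with siNT. RAD51C read -0.38, -0.28 and -0.40 in siMESH1, siATF4 and siMESH1+siATF4. RAD51D, XRCC2 and XRCC3 lay between -0.15 and 0.11 in all 3. Of the RAD51C probe sets, 1 was called alone in the double silencing (-0.54).

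Of the 6 measured Fanconi genes, 3 fell and 1 rose in siMESH1, 2 fell and 1 rose in siATF4, and 3 fell and 1 rose in siMESH1+siATF4. FANCI, the partner of FANCD2 that is clamped on DNA at a crosslink, accounted for the depth. It was at -1.69, -1.69 and -1.55 in siMESH1, -1.33, -1.53 and -1.47 in siATF4 and -1.87, -2.32 and -1.89 in siMESH1+siATF4, against 0.12, -0.08 and -0.04 in siNT. The groups did not overlap, with the double silencing lowest and siATF4 the highest of the silenced groups (siMESH1 vs siNT log2 -1.64, SE 0.107, adjusted p = 1.2e-07). FANCE, the core complex subunit that contacts FANCD2, was at -0.53, -0.54 and -0.68 in siMESH1, -0.61, -0.71 and -0.52 in siATF4 and -0.64, -0.53 and -0.71 in siMESH1+siATF4, against -0.02, 0.08 and -0.06 in siNT. Its 3 silenced groups overlapped and all lay below siNT (adjusted p = 2.5e-05, 2.1e-05 and 1.1e-05 in the same order), although with housekeeping centring it was under the fold minimum at -0.26, -0.47 and -0.41.

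FANCC, another core subunit, was low in siMESH1 alone. Its values were -0.37, -0.61 and -0.59 in siMESH1, 0.04, 0.19 and 0.19 in siATF4, 0.18, 0.17 and 0.12 in siMESH1+siATF4 and 0.01, -0.05 and 0.04 in siNT. All siMESH1 arrays lay below the other 9, and the double-silenced arrays lay above siNT (siMESH1 vs siNT log2 -0.52, SE 0.0692, adjusted p = 7e-05). That call sat at the fold minimum and was lost without siMESH1 replicate 2 (-0.48) or 3 (-0.49) and with housekeeping centring (-0.19). FANCF, the adaptor that holds the core complex together, rose. It was at 0.56, 0.52 and 0.55 in siMESH1, 0.60, 0.65 and 0.62 in siATF4 and 0.95, 0.81 and 0.76 in siMESH1+siATF4, against -0.001, 0.14 and -0.14 in siNT. The 4 groups did not overlap (log2 0.54, 0.62 and 0.84, adjusted p = 5.6e-05, 2.1e-05 and 9.3e-07). The siMESH1 call was lost without siNT replicate 3 (0.47). FANCG, a further core subunit, read -0.41, -0.44 and -0.58 and was called in the double silencing (adjusted p = 3.1e-05). With housekeeping centring that value was -0.36, under the fold minimum. FANCL, the ubiquitin ligase subunit, read -0.41, -0.12 and -0.25 and was not called.

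Promoter sequences of the members were searched for short motifs known from genes transcribed in S and G2 phase. RefSeq promoters (GRCh38.p14, 250 bases before to 50 after the start) were matched for 39 of the 44 genes. The motifs were an E2F site (TTTCGCGC or TTTGGCGC), the cell cycle homology region CHR (TTTGAA) and the CCAAT box (CCAAT), each on both strands and with no mismatch. The E2F letters were in 4 of 39 member promoters (10.3%) and in 1.83% of 9563 promoters of genes on the arrays. They were in 2 of 12 promoters of members called lower in siMESH1 (16.7%) and in 2 of 27 of the other members (7.41%). By block they were in 2 of 15 recombination and Fanconi promoters (13.3%), 2 of 18 of the other routes (11.1%) and 0 of 6 of sensing and checkpoint genes. The CHR letters were in 4 of 39 members (10.3%, against 11.0% of all), and the CCAAT box was in 18 of 39 (46.2%, against 37.3% of all). The CHR letters split as the E2F letters did, in 2 of 12 members called lower in siMESH1 (16.7%) and in 2 of 27 others (7.41%). Among members called lower in siMESH1 the CCAAT box was in 5 of 12 (41.7%), and among the others in 13 of 27 (48.1%). These shares are descriptions of few promoters, and no test was made of them. The 120 bases before the start are shown for 4 of the genes that fell with a match there. CHEK2 (at -70 and -40) and CHEK1 (at -105) also fell with CCAAT matches there and are not shown. FANCF, which rose, and MSH3, which was not called and carries overlapping E2F matches, are shown beside them. Promoters with like motifs and unlike responses can thus be read together. Capitals mark the matches (CCAAT on the top strand, ATTGG on the bottom strand, TTTGAA for CHR, and in MSH3 TTTGGCGC with the overlapping bottom-strand match GCGCGAAA), and every sequence runs 5′ to 3′ on the strand of its gene.
RAD51AP1, chr12:4538770-4538889, plus strand: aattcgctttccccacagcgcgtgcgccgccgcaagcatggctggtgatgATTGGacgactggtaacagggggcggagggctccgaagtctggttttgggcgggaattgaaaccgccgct
RAD54L, chr1:46247568-46247687, plus strand: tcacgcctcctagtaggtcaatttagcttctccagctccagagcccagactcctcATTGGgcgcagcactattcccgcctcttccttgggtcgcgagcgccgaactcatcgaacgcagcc
BLM, chr15:90717226-90717345, plus strand: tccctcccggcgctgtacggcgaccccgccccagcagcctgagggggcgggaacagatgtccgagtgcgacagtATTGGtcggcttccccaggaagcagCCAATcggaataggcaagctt
NEIL3, chr4:177309754-177309873, plus strand: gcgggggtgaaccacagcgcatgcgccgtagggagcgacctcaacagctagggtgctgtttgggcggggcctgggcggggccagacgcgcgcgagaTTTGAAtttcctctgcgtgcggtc
FANCF, chr11:22625824-22625943, minus strand: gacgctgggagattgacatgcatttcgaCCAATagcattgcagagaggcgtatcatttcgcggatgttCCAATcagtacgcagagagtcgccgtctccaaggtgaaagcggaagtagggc
MSH3, chr5:80654532-80654651, plus strand: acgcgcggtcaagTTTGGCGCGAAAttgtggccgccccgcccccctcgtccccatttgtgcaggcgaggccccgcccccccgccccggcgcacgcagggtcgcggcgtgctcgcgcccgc
RAD51AP1 and RAD54L, which fell, held a CCAAT box at -70 and at -65, RAD54L having another at -2 that runs over the start, and FANCF, which rose, held a pair at -92 and -52. MSH3 held the E2F letters in both orientations and read 0.02, 0.02 and -0.01 in siMESH1, siATF4 and siMESH1+siATF4. EXO1 held its E2F match at +4, after the start, and FANCC held one at -172. A match is a run of letters in a fixed window, and binding was not measured.

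The break sensing and checkpoint members changed less. Of 7 genes, 1 fell in each comparison with siNT and 0 rose by limma (1 in each at an unadjusted p under 0.05, ATM), with median log2 differences of -0.27 in siMESH1, -0.24 in siATF4 and -0.29 in the double silencing (0.07, -0.09 and -0.06 with housekeeping centring, so the direction flipped in siMESH1). The gene that fell was CHEK2 in siMESH1 and CHEK1 in both groups with the ATF4 pool. CHEK2, the kinase downstream of ATM, was at -0.58, -0.53 and -0.60 in siMESH1, -0.40, -0.35 and -0.34 in siATF4 and -0.57, -0.43 and -0.33 in siMESH1+siATF4, against 0.03, 0.19 and -0.22 in siNT. Every silenced array lay below siNT, and the call was made in siMESH1 (log2 -0.57, SE 0.0901, adjusted p = 0.00028), but it was lost without siNT replicate 2 (-0.48) and with housekeeping centring (-0.24). CHEK1, the kinase downstream of ATR that guards replication forks, was at -0.42, -0.42 and -0.44 in siMESH1, -0.80, -0.86 and -0.65 in siATF4 and -0.67, -0.65 and -0.62 in siMESH1+siATF4, against 0.05, 0.03 and -0.08 in siNT. The siMESH1 arrays lay above those with the ATF4 pool and below siNT. CHEK1 fell by 0.77 in siATF4 (SE 0.0585, adjusted p = 6.8e-07) and by 0.65 in siMESH1+siATF4 (adjusted p = 2e-06), the latter -0.42 with housekeeping centring.

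ATM, the kinase that answers double-strand breaks, leaned the other way, at 0.33, 0.32 and 0.24 in siMESH1, 0.36, 0.23 and 0.37 in siATF4 and 0.37, 0.38 and 0.46 in siMESH1+siATF4, against -0.05, 0.01 and 0.05 in siNT. All 9 silenced arrays lay above siNT, with differences under the fold minimum (adjusted p = 0.001, 7e-04 and 7.9e-05), and with housekeeping centring the siMESH1 and siMESH1+siATF4 values, 0.63 and 0.62, were called. MRE11, the nuclease of the complex that first binds a break, was at -0.34, -0.30 and -0.34 in siMESH1, -0.38, -0.43 and -0.38 in siATF4 and -0.23, -0.33 and -0.46 in siMESH1+siATF4, against -0.13, 0.21 and -0.09 in siNT. It lay below siNT in every silenced array without being called. Its partners NBN and RAD50 and the kinase ATR stayed between -0.29 and 0.09 in the 3 comparisons.

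**Figure D2:**
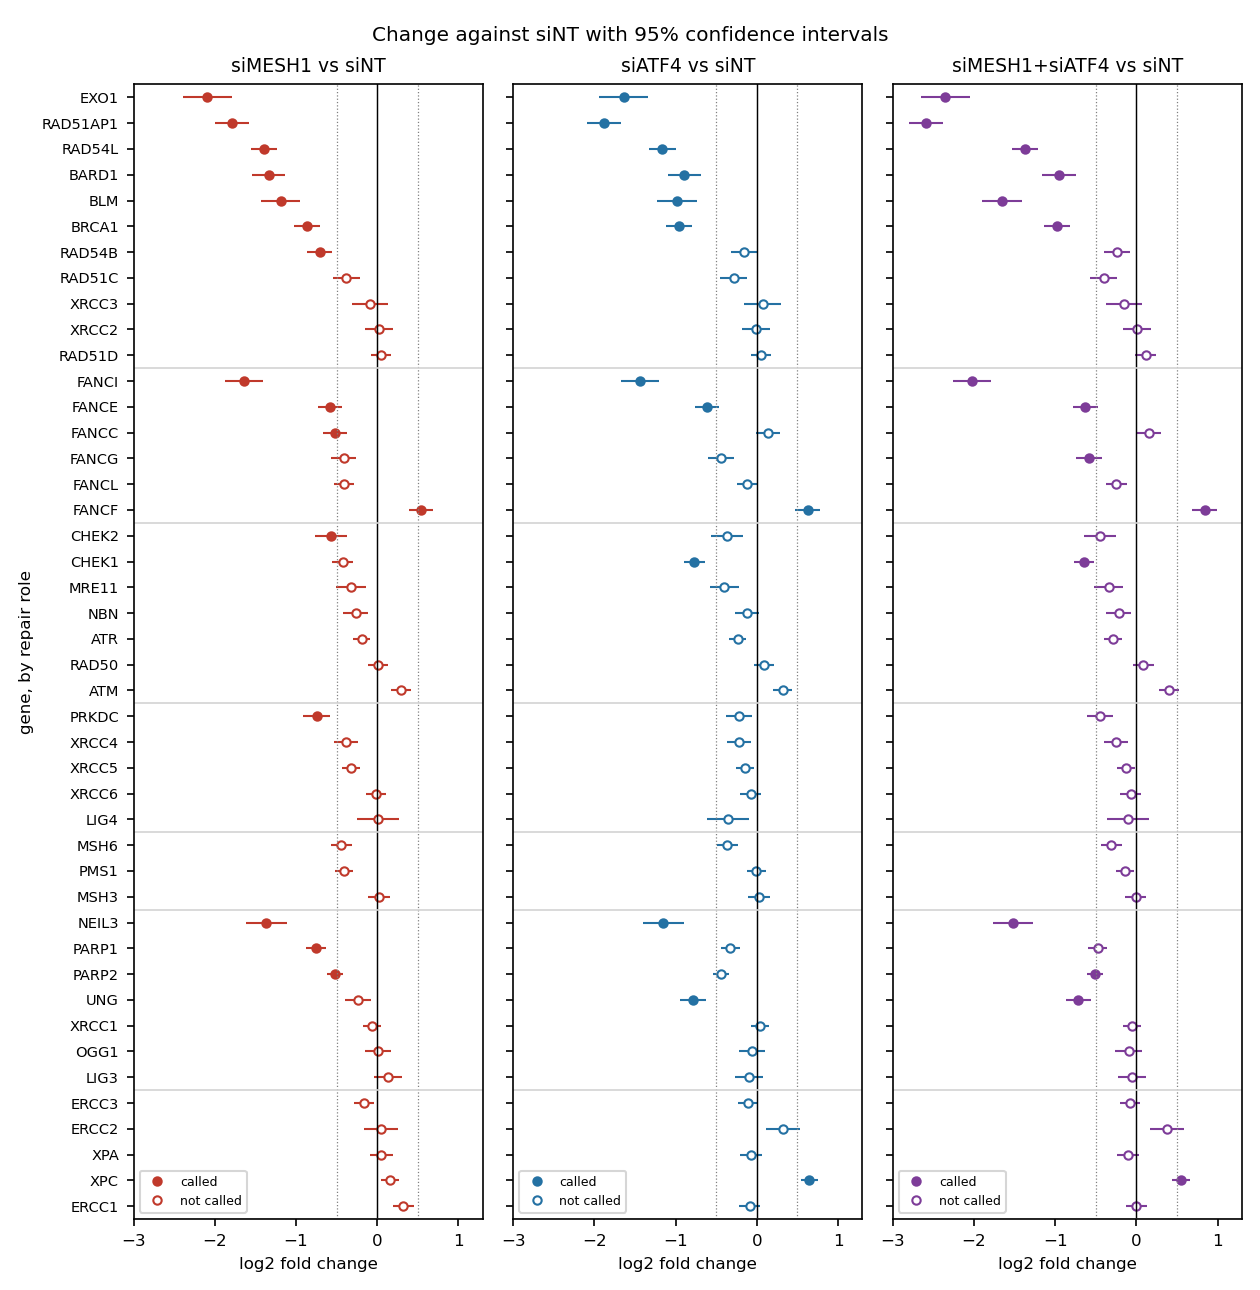
Log2 fold change against siNT (x axis) with its 95% confidence interval (bar) for the 44 genes (y axis, grouped by repair role) in siMESH1, siATF4 and siMESH1+siATF4 (panels); filled points are called, and dotted lines mark the fold minimum of 0.5. The recombination and Fanconi genes reach from -2.59 to 0.84, and the 20 genes of the other repair routes stay within the fold minimum apart from NEIL3, PARP1, PARP2, PRKDC, UNG and XPC.

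The other repair routes held fewer calls. Of 20 genes, 4 fell and 0 rose by limma in siMESH1 (2 higher at an unadjusted p under 0.05), 2 fell and 1 rose in siATF4, and 3 fell and 1 rose in siMESH1+siATF4. Of the 17 recombination and Fanconi genes, 10 fell and 1 rose, 8 fell and 1 rose, and 9 fell and 1 rose. Over all genes 5.37%, 4.03% and 5.25% were called lower in the same order, and 2.82%, 2.49% and 4.4% higher. The falls in both blocks exceeded these shares, and the rises came from at most 1 gene per block. The medians were -0.11, -0.10 and -0.10 for the other routes against -0.59, -0.44 and -0.58 for recombination and Fanconi genes. By array, the median of the recombination and Fanconi genes ran from -0.68 to -0.53 in siMESH1, from -0.53 to -0.39 in siATF4 and from -0.61 to -0.53 in siMESH1+siATF4. That of the other routes ran from -0.22 to -0.11, from -0.17 to -0.12 and from -0.16 to -0.10. The recombination and Fanconi median was thus the lower on all 9 silenced arrays, and both lay between -0.06 and 0.05 on the siNT arrays. With housekeeping centring the medians were -0.26, -0.30 and -0.36 for recombination and Fanconi genes, and those of the other routes turned positive, at 0.22, 0.05 and 0.12. No test of the difference between the blocks was made, since the genes are not replicates of each other.

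Within end joining, 1 of 5 genes fell in siMESH1 and 0 were called by limma in siATF4 or siMESH1+siATF4, where 4 and 3 were lower at an unadjusted p under 0.05. PRKDC, the catalytic subunit of DNA-dependent protein kinase, was at -0.67, -0.71 and -0.87 in siMESH1, -0.31, -0.13 and -0.22 in siATF4 and -0.51, -0.35 and -0.49 in siMESH1+siATF4, against -0.13, 0.06 and 0.06 in siNT. The 4 groups did not overlap, siMESH1 being the lowest (log2 -0.75, SE 0.076, adjusted p = 7.1e-06). Its 3 probe sets read -1.09, -1.08 and -0.08, so 1 of them did not follow, and the gene was -0.42 with housekeeping centring. The Ku subunits that bind the broken end differed from each other. XRCC5 (Ku80) was at -0.26, -0.35 and -0.34 in siMESH1, -0.19, -0.13 and -0.14 in siATF4, -0.12, -0.19 and -0.08 in siMESH1+siATF4 and -0.01, 0.06 and -0.05 in siNT. XRCC6 (Ku70) was at 0.02, -0.03 and -0.04, -0.14, -0.09 and 0.003, -0.12, -0.06 and -0.04 and -0.09, 0.11 and -0.02 in the same groups. XRCC5 lay below siNT in every silenced array and XRCC6 overlapped siNT in every group. The ligation partners XRCC4 and LIG4 were not called. XRCC4 was at -0.40, -0.39 and -0.37 in siMESH1, -0.26, -0.15 and -0.26 in siATF4, -0.18, -0.24 and -0.33 in siMESH1+siATF4 and 0.06, 0.09 and -0.15 in siNT, lowest in siMESH1. The 4 probe sets of XRCC4 ran from -0.51 to -0.286 in siMESH1, and only 3 of the 4 were, like the gene, not called. LIG4 had log2 differences of 0.01, -0.36 and -0.10.

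Mismatch repair had 0 of 3 genes called by limma against siNT in any comparison, while 2 in siMESH1, 1 in siATF4 and 2 in the double silencing were lower at an unadjusted p under 0.05. MSH6, which recognises single mismatches, was at -0.39, -0.41 and -0.52 in siMESH1, -0.37, -0.31 and -0.41 in siATF4 and -0.27, -0.29 and -0.37 in siMESH1+siATF4, against -0.10, 0.02 and 0.08 in siNT. Every silenced array was below siNT (siMESH1 vs siNT log2 -0.44, adjusted p = 7.5e-05). The 3 probe sets of MSH6 ran from -0.635 to -0.194 in siMESH1, and only 2 of the 3 were, like the gene, not called. PMS1, a MutL homologue, was at -0.48, -0.34 and -0.40 in siMESH1, -0.03, 0.01 and 0.01 in siATF4, -0.08, -0.18 and -0.15 in siMESH1+siATF4 and -0.004, 0.04 and -0.04 in siNT. It was low in siMESH1 and overlapped siNT in siATF4 (siMESH1 vs siNT log2 -0.41, adjusted p = 4.8e-05). MSH3, which recognises larger loops, was at 0.05, 0.03 and -0.02, 0.10, 0.05 and -0.07, -0.06, -0.07 and 0.09 and 0.01, -0.07 and 0.06 in siMESH1, siATF4, siMESH1+siATF4 and siNT, all overlapping.

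Base excision and single-strand break repair held most of the calls among the other routes. Of 7 genes, 3 fell in siMESH1, 2 in siATF4 and 3 in the double silencing. NEIL3, a glycosylase that removes oxidised bases and unhooks some crosslinks, was at -1.67, -1.10 and -1.33 in siMESH1, -1.03, -1.21 and -1.22 in siATF4 and -1.58, -1.54 and -1.44 in siMESH1+siATF4, against 0.08, 0.04 and -0.11 in siNT. The siMESH1 arrays spread widely and overlapped both other silenced groups (log2 -1.37, SE 0.115, adjusted p = 1.3e-06). PARP1, which marks nicked DNA with poly-ADP-ribose, was at -0.69, -0.78 and -0.78 in siMESH1, -0.41, -0.32 and -0.25 in siATF4 and -0.44, -0.56 and -0.43 in siMESH1+siATF4, against 0.01, -0.001 and -0.01 in siNT. Its 4 groups did not overlap, and siMESH1 was the lowest (log2 -0.75, SE 0.0563, adjusted p = 4.3e-07; -0.42 with housekeeping centring). PARP2, its paralogue, was at -0.50, -0.53 and -0.54 in siMESH1, -0.46, -0.42 and -0.43 in siATF4 and -0.48, -0.56 and -0.48 in siMESH1+siATF4, against 0.04, -0.001 and -0.04 in siNT. The silenced groups lay close together around the fold minimum, and the calls in siMESH1 (log2 -0.52, adjusted p = 1.6e-06) and siMESH1+siATF4 (log2 -0.51, adjusted p = 1.8e-06) were lost with the median of its probe sets (-0.48 and -0.47) and with housekeeping centring (-0.19 and -0.29). The siMESH1+siATF4 call was also lost without siNT replicate 1 (-0.49) or siMESH1+siATF4 replicate 2 (-0.48).

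UNG, the glycosylase that removes uracil from DNA, was lower with the ATF4 pool than with siMESH1. Its values were -0.19, -0.25 and -0.26 in siMESH1, -0.66, -0.94 and -0.74 in siATF4, -0.62, -0.75 and -0.77 in siMESH1+siATF4 and 0.07, 0.02 and -0.09 in siNT. The siATF4 and siMESH1+siATF4 arrays overlapped and lay below siMESH1, which lay below siNT. It fell by 0.78 in siATF4 (SE 0.0727, adjusted p = 4e-06) and by 0.71 in siMESH1+siATF4 (adjusted p = 5.9e-06), the latter -0.49 with housekeeping centring. XRCC1, the scaffold of single-strand break repair, its ligase LIG3 and the oxidised guanine glycosylase OGG1 stayed between -0.10 and 0.13 in the 3 comparisons and were not called.

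Nucleotide excision repair had 0 of 5 genes called by limma in siMESH1 (1 lower and 2 higher at an unadjusted p under 0.05) and 1 gene that rose in siATF4 and in siMESH1+siATF4. That gene was XPC, the sensor of helix distortion that starts the pathway. It was at 0.16, 0.13 and 0.17 in siMESH1, 0.65, 0.68 and 0.62 in siATF4 and 0.57, 0.50 and 0.56 in siMESH1+siATF4, against -0.02, 0.09 and -0.07 in siNT. The 4 groups did not overlap, and the 6 arrays with the ATF4 pool were the highest (siATF4 vs siNT log2 0.65, SE 0.0507, adjusted p = 8.6e-07; siMESH1+siATF4 vs siNT log2 0.55, adjusted p = 2.5e-06). ERCC1, which with XPF cuts the damaged strand, was at 0.34, 0.33 and 0.29 in siMESH1, -0.18, -0.06 and -0.02 in siATF4, 0.04, -0.08 and 0.05 in siMESH1+siATF4 and -0.05, 0.10 and -0.04 in siNT. It was higher in all siMESH1 arrays than in the other 9, under the fold minimum (log2 0.32, adjusted p = 0.0012), and called at 0.65 with housekeeping centring. The helicases of TFIIH were not called. ERCC3 was at -0.14, -0.19 and -0.18 in siMESH1, -0.15, -0.11 and -0.07 in siATF4, -0.09, -0.13 and -0.04 in siMESH1+siATF4 and -0.05, 0.12 and -0.07 in siNT, and ERCC2 had log2 differences of 0.05, 0.32 and 0.38. XPA, which verifies the lesion, was at -0.02, 0.11 and 0.06, -0.01, -0.12 and -0.08, -0.09, -0.08 and -0.13 and 0.12, 0.002 and -0.12 in siMESH1, siATF4, siMESH1+siATF4 and siNT. Every silenced group overlapped siNT, while the siMESH1 arrays lay above those of siMESH1+siATF4.

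**Figure D3:**
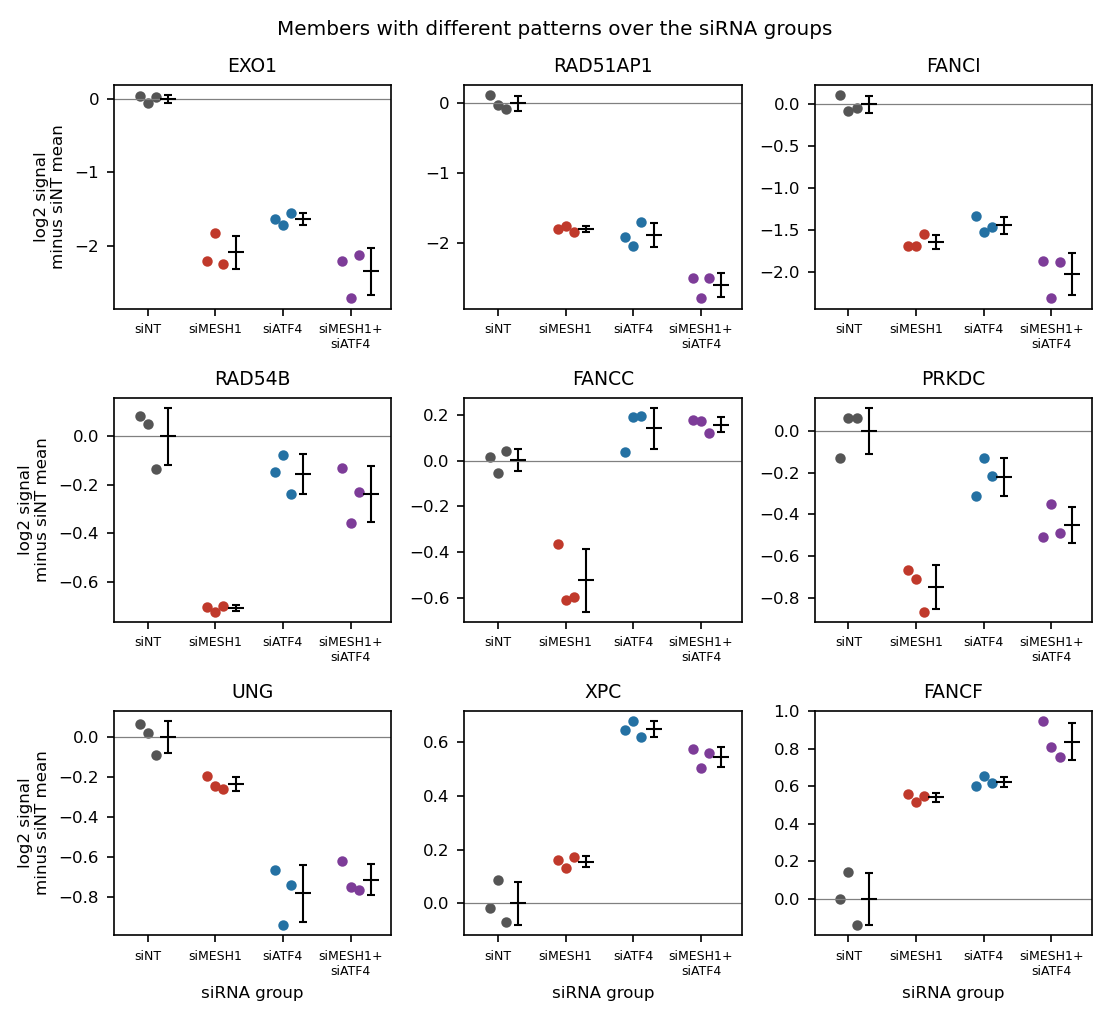
Log2 signal minus the siNT mean (y axis, with its own range in each panel) on each array (points) in the 4 siRNA groups (x axis), with the group mean and SD (bars, n = 3) for 9 genes. EXO1, RAD51AP1 and FANCI are low in all silenced groups, RAD54B, FANCC and PRKDC are lowest in siMESH1, UNG and XPC move most with the ATF4 pool, and FANCF is higher in all silenced groups.

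The single silencings were then compared directly, which needs no siNT array. Over all genes 4.75% were lower and 3.91% higher in siMESH1 than in siATF4. Of the 44 members, 3 were lower and 1 was higher, which is near these backgrounds. FANCC was lower by a log2 difference of -0.66 (SE 0.0692, adjusted p = 8.6e-06), RAD54B by -0.55 (SE 0.0724, adjusted p = 5.8e-05) and PRKDC by -0.53 (SE 0.076, adjusted p = 0.00013). UNG was higher by 0.55 (SE 0.0727, adjusted p = 6.6e-05). The first 3 genes act in different routes, a Fanconi core subunit, a recombination motor and an end-joining kinase. With housekeeping centring all 3 were under the fold minimum, at -0.48, -0.37 and -0.34. CHEK1 (0.52), LIG4 (0.55) and ERCC1 (0.59) were then called higher beside UNG. The tally thus turned to 0 lower and 4 higher, with every gene raised by 0.18. The share over all genes was not counted on that scale. In the deposited scale PRKDC and UNG were lost without 1 array (PRKDC -0.47 without siMESH1 replicate 3 and -0.48 without siATF4 replicate 2, UNG 0.47 without siATF4 replicate 2). XPC, at -0.49 (adjusted p = 7.5e-06), lay just under the fold minimum. The deep falls differed less between the single silencings. EXO1 read -0.45 (95% interval -0.76 to -0.15), RAD51AP1 0.09 (-0.12 to 0.30) and BRCA1 0.09 (-0.07 to 0.25).

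Adding the ATF4 pool to siMESH1 left few members called. Of 44, 1 was lower and 1 higher in siMESH1+siATF4 vs siMESH1. This is near the shares over all genes, 2.68% lower and 3.42% higher. At an unadjusted p under 0.05 by limma, 9 members were lower and 12 higher. RAD51AP1 fell further, by 0.80 on the log2 scale (SE 0.0957, adjusted p = 4.2e-05). FANCC was higher by 0.68 (SE 0.0692, adjusted p = 1.1e-05). RAD54B was higher by 0.47 (adjusted p = 0.00032), just under the fold minimum. FANCC and RAD54B were thus low with siMESH1 alone, and in the presence of the ATF4 pool their arrays stood near or above siNT. Adding siMESH1 to the ATF4 pool lowered 4 of the 44 members, against 1.28% of all genes, and raised 0 by limma, against 0.351% (1 at an unadjusted p under 0.05). These were RAD51AP1 (log2 -0.71, adjusted p = 0.00044), EXO1 (-0.71, 0.0053), BLM (-0.67, 0.0018) and FANCI (-0.58, 0.0036). All 4 belong to recombination or the Fanconi pathway, and 8 of the 18 proliferation markers were lower in the same comparison. FANCI was lost without siMESH1+siATF4 replicate 2 (-0.44), which held its lowest value. The methods' t-test with Benjamini-Hochberg adjustment over all genes, an alternative chosen after seeing the data, called 0 of the 4.

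Whether the changes added up was tested as an interaction, the change that siMESH1 made on top of the ATF4 pool, less the change it made against siNT. A positive value means that the double silencing lay above the sum of both single changes. The interaction was positive and called for 13 of the 44 members and negative and called by limma for 0, against 3.46% and 0.853% of all genes. At an unadjusted p under 0.05 it was positive for 26 and negative for 4, and the share of all genes at that threshold was not counted. Of the 13, 9 were recombination or Fanconi genes, 3 belonged to the other routes and 1 was a checkpoint kinase. EXO1 would have stood at -3.73 by the sum of the single changes and stood at -2.35 (interaction 1.38, SE 0.197, adjusted p = 0.00052). BARD1 stood at -0.96 where the sum was -2.23 (interaction 1.27, SE 0.135, adjusted p = 5.6e-05). RAD54L stood at -1.37 where the sum was -2.56 (interaction 1.19, SE 0.105, adjusted p = 1.5e-05). For EXO1, BARD1 and RAD54L the double silencing was about as low as the deeper single silencing or less low, and not at the sum. RAD51AP1 (-2.59) and FANCI (-2.03) stood below both single silencings and above their sums (-3.67 and -3.08). RAD54B (-0.24), PARP1 (-0.48) and PRKDC (-0.45) were less low than in siMESH1 alone. FANCC stood above siNT in the double silencing, at 0.16, where the sum was -0.38 (interaction 0.54, SE 0.0979, adjusted p = 0.0032). BLM had an interaction of 0.52 (SE 0.157, adjusted p = 0.053), which was not called. The proliferation markers moved with the same term, 17 of 18 being called with a positive interaction and a median of 0.98. The division of the siRNA in the double silencing and the signal levels are not known here. Their part in the interaction was not tested. With housekeeping centring, which lowers every interaction by 0.26, 7 members had a called positive interaction and 2 a negative one (FANCF -0.58 and XPC -0.51), so the count of positive interactions depended on the scaling, and RAD54B, FANCC, FANCE, CHEK1, PRKDC and PARP1 were lost. EXO1, BARD1, RAD54L, RAD51AP1, FANCI, NEIL3 and BRCA1 were called under both scalings. The shares over all genes were not counted with housekeeping centring.

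**Figure D4:**
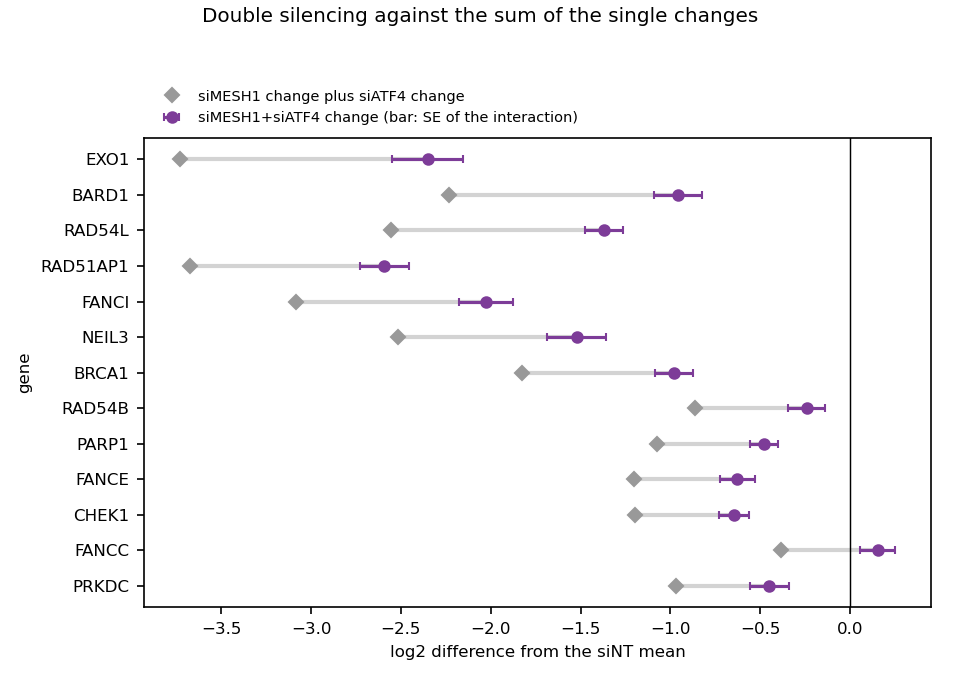
Log2 difference from the siNT mean (x axis) for the 13 genes with a called interaction (y axis); grey diamonds are the sum of the siMESH1 and siATF4 changes, purple points the siMESH1+siATF4 change with the standard error of the interaction as bar. Only genes with a called interaction are drawn, and all 13 calls were positive. Every purple point therefore lies to the right of its diamond, by 0.52 for PRKDC up to 1.38 for EXO1.

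A further 103 repair genes were listed by route to see whether the members stood for their pathways, and 78 of them were measured. Over all genes tested, 5.37% were called lower and 2.82% higher in siMESH1. The shares were 4.03% and 2.49% in siATF4, and 5.25% and 4.4% in siMESH1+siATF4. In siMESH1 22 fell and 0 rose by limma, in siATF4 17 fell and 0 rose (15 and 13 higher at an unadjusted p under 0.05), and in siMESH1+siATF4 22 fell and 2 rose (MBD4 at 0.64 and TP53BP1 at 0.53, named after their values were seen), with medians of -0.09, -0.09 and -0.13. With housekeeping centring the balance changed, to 6 lower and 14 higher in siMESH1 (median 0.24), 6 and 2 in siATF4 (median 0.06) and 10 and 6 in the double silencing (median 0.09). By route in siMESH1 on the deposited scale, 6 of 17 recombination genes fell, 1 of 5 Fanconi genes, 9 of 19 sensing and checkpoint genes, 2 of 5 end-joining genes, 0 of 1 mismatch genes, 2 of 15 base excision genes and 2 of 16 nucleotide excision genes. With housekeeping centring the same routes had 3 lower and 1 higher, 0 and 1, 2 and 3, 0 and 0, 0 and 0, 1 and 3, and 0 and 6. Among the 7 checkpoint members 1 fell in siMESH1 on the deposited scale. There the further recombination genes had a median of -0.19, against -0.87 for the members. The further sensing and checkpoint genes had -0.49, against -0.265 for the members. In siMESH1 the order of these routes was thus reversed, and the members did not stand for them. In siATF4 and siMESH1+siATF4 the further recombination genes (-0.46 and -0.56) lay below the further checkpoint genes (-0.23 and -0.31). WEE1, the kinase that holds CDK1 inactive, read -0.96 in siMESH1, -0.09 in siATF4 and -0.31 in the double silencing, called in siMESH1 (adjusted p = 2e-08). TIPIN, which steadies paused replication forks, read -0.98, -0.40 and -0.73 in the same order, and CDC25B, a phosphatase that activates CDK1, read -0.70, -0.82 and -0.68. Among recombination genes, SHLD2, a shieldin subunit that limits end resection, read -1.21, -0.42 and -1.02. DNA2, a resection nuclease, read -0.92, -0.70 and -0.80, and RMI1, a partner of BLM, -0.78, -0.53 and -0.61. The list for recombination thus holds a factor that opposes resection beside one that performs it, and both read below siNT in all 3 groups.

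In the Fanconi list USP1, which removes ubiquitin from FANCD2, read -0.79 in siMESH1 (adjusted p = 1.5e-05), -0.55 in siATF4 and -0.75 in the double silencing. The crosslink nucleases DCLRE1A (-0.44) and FAN1 (-0.33) were not called in siMESH1. In base excision repair the flap nuclease FEN1 read -1.51, -1.15 and -1.48 in siMESH1, siATF4 and siMESH1+siATF4, and the ligase LIG1 -0.80, -0.64 and -0.86. Both are also enzymes of lagging-strand replication, and PARP4 (-0.32 in siMESH1) was not called. Among end-joining genes TDP1 and TDP2, which clear topoisomerase from DNA ends, read -0.77 and -0.71 in siMESH1 and -0.14 and -0.33 in siMESH1+siATF4. They were called in siMESH1 and not in the double silencing, and the polymerase POLL read 0.12 in siMESH1. In nucleotide excision repair DDB1, an adaptor of the damage-binding ubiquitin ligase, read -0.73, -0.49 and -1.25. CCNH, the cyclin of TFIIH, read -0.55 in siMESH1 and was called there, CETN2, a partner of XPC, read 0.49 just under the fold minimum, and the mismatch gene MLH3 read -0.05. Of the named further genes called in siMESH1, housekeeping centring left SHLD2, DNA2, TIPIN, WEE1 and FEN1 called. It put RMI1 (-0.45), USP1 (-0.46), CDC25B (-0.37), TDP1 (-0.44), TDP2 (-0.38), LIG1 (-0.47), DDB1 (-0.40) and CCNH (-0.22) under the fold minimum and CETN2 (0.82) over it.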

How the data were processed

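Gene expression was measured in 12 cultures of RCC4 cells on Affymetrix human expression arrays. The authors scanned the arrays, normalised them by RMA in Affymetrix Expression Console, and deposited log2 values per probe set from which the siNT mean had been subtracted. Software versions: not given in the sources used here. In the table the largest siNT mean of a probe set was 0.00012 in size, and array medians ran from -0.0086 to 0.0313. Subtraction leaves differences without a level, so dim probes could not be filtered and levels could not be compared between genes. The scanner files were not used here, and 0 columns of sample values were left unassigned. No pair of arrays held identical values, and 3 arrays per group limit the precision.

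Of 22277 probe sets, 19064 carried 1 gene symbol in the platform annotation (19052 updated through the Entrez identifier), and 1043 carried several, 1 of them including the member RAD54B, and were left out. The mean per gene gave 11963 genes. The members had 73 probe sets, 24 genes having 1 and 20 having several. Genes were tested with lmFit and eBayes (limma 3.58.1, R 4.3.3) in 1 fit over all 12 arrays with group means and without a block (8 residual and 4.32 prior degrees of freedom), with Benjamini-Hochberg adjustment over all genes, and errors are standard errors of that fit. The fit was tested on simulated data with known changes. Python 3.11.15, pandas 2.3.3, numpy 2.4.6 and matplotlib 3.10.9 were used for tables and figures. Promoters came from RefSeq on GRCh38.p14.

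Members, roles, gene lists, motifs and tests were chosen with earlier results of these data known. Values on every array were given for up to 4 members per role with the smallest p in siMESH1 vs siNT and for members called between silenced groups or in the interaction; of the further repair genes, up to 3 per role were named by the same p. The alternatives were array median or housekeeping centring, the median of probe sets, leaving out probe sets with shared sequence (IDs ending in _x_at or _s_at), a replicate block, robust eBayes, only the groups compared in the fit, the methods' t-test, other fold minimums, and leaving out each array. The interaction cannot be had from the t-test or from a fit of only the groups compared. Identity between proteins was not analysed here. Same-numbered arrays of different groups had deviations from the group means that correlated between -0.191 and 0.0951, and 2 of 12 arrays matched their own number best, so the numbers were not taken to pair the samples.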

Additional observations from a re-analysis of the deposited data

Results flagged for a closer look

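For 13 members the effect of siMESH1 differed between cells with and without the ATF4 pool, by the test of the interaction, which was called for each of them and positive in each. The interaction on the log2 scale was 1.38 for EXO1, 1.27 for BARD1, 1.19 for RAD54L, 1.08 for RAD51AP1, 1.06 for FANCI, 0.85 for BRCA1 and 0.63 for RAD54B. It was 0.57 for FANCE, 0.54 for FANCC and 0.55 for the checkpoint kinase CHEK1. Among the other repair routes it was 0.998 for NEIL3, 0.60 for PARP1 and 0.52 for PRKDC. Against siNT, siMESH1 lowered EXO1 by a log2 difference of -2.09, and against siATF4 the addition of siMESH1 changed it by -0.71. With housekeeping centring FANCE, FANCC, RAD54B, CHEK1, PARP1 and PRKDC were no longer called (0.32, 0.28, 0.37, 0.29, 0.34 and 0.26). FANCC was also lost without siMESH1 replicate 2 (0.495) or siATF4 replicate 1 (0.49), and CHEK1 and PRKDC without the probe sets of shared sequence (0.46 and 0.39). PRKDC was also lost without siNT replicate 2 (0.49) or 3 (0.49), siMESH1 replicate 3 (0.46), siMESH1+siATF4 replicate 2 (0.47) or siATF4 replicate 1 (0.47). Single arrays were not tested as outliers in these groups of 3. How the siRNA was divided in the double silencing is not given, and the values hold no levels. The part of either in these interactions was not tested.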

How the results depend on the processing

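No call changed direction under any alternative run. With housekeeping centring the count of called members of the other repair routes in siMESH1 vs siNT went from 4 to 2, and that of all members in siMESH1+siATF4 vs siMESH1 from 2 to 4. Centring on the median of the housekeeping genes in place of their mean, also chosen after seeing the data, gave 4 calls in siMESH1+siATF4 vs siMESH1 and 8 in the interaction. Without probe sets of shared sequence it was 2 for the other routes in siMESH1+siATF4 vs siNT (15 genes left), and 1 of 32 members in both siMESH1+siATF4 vs siMESH1 and siMESH1 vs siATF4, where fewer genes were tested. With no fold minimum the other routes had 12, 11 and 9 calls in siMESH1, siATF4 and siMESH1+siATF4, and the members had 16 in siMESH1+siATF4 vs siMESH1, 17 in siMESH1 vs siATF4 and 21 in the interaction. With a fold minimum of 1 (log2), recombination and Fanconi genes had 6, 4 and 5 calls against siNT, the other routes 1, 1 and 1, the interaction 5, and by limma 0 members were called in siMESH1+siATF4 vs siMESH1, siMESH1+siATF4 vs siATF4 and siMESH1 vs siATF4. The methods' t-test at its unadjusted threshold made the same member calls as limma, and after Benjamini-Hochberg adjustment, an alternative chosen after seeing the data, it called 0 members instead of 4 in siMESH1+siATF4 vs siATF4. Leaving out 1 array gave 10 to 11, 9 to 10 and 10 to 10 recombination and Fanconi calls and 4 to 4, 3 to 3 and 3 to 5 calls in the other routes. Over all members it gave 2 to 3, 3 to 4, 2 to 5 (2 without siATF4 replicate 2) and 11 to 15 in siMESH1+siATF4 vs siMESH1, siMESH1+siATF4 vs siATF4, siMESH1 vs siATF4 and the interaction. Array median centring gave 16 interaction calls. With the replicate number as a block the counts were 11, 9 and 10 for recombination and Fanconi genes, 4, 3 and 4 for the other routes, and 2, 4, 4 and 13 for the remaining comparisons, so the block changed no call. Of 20 members with several probe sets, OGG1, RAD50 and XRCC6 had probe sets of both signs in siMESH1 vs siNT, and of the called BRCA1, FANCI, PARP2 and PRKDC, 2 had every probe set called alone. The causes of these changes were not tested. The depth of an array is not in the files, and no level limits could be set.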
